A study of Mus musculus with 6 samples.

Results

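The glutathione and NRF2 antioxidant genes comprised 48 genes named by function: NRF2 and its repressor, the enzymes that make and recycle glutathione, the thioredoxin system, other NRF2 targets, suppliers of NADPH, peroxidases, catalase, superoxide dismutases and glutathione transferases. Members were taken by gene symbol from a liver RNA-Seq table of 54532 genes, and all 48 were found there. After the filter on low counts 15449 genes were tested, among them 46 members. *Ggt1* and *Gpx2* were too low to be tested, and *Slc7a11* and *Mgst2* passed the filter only through their counts in the mutants.

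The study asked what deletion of *Spns1*, a lysosomal transporter of lysophospholipids, does to lipid metabolism in mice. RNA-Seq was performed on whole liver of 3 g*Spns1*-cKO and 3 control mice, 1 library per mouse. g*Spns1*-cKO mice carried a loxP-flanked exon of *Spns1* on both alleles together with the Rosa26Cre-ERT2 allele, whose Cre acts in the whole body after tamoxifen, which was given between the second and the third week after birth. Controls were littermates with the floxed alleles and without Cre according to the study's methods, whereas the sample labels call them WT. All mice were on a C57BL/6 background. Age at collection and sex of these 6 mice, and whether the controls also received tamoxifen, are not given in the sources used here. Since Cre was not restricted to hepatocytes, every cell type of the liver could have lost the gene.

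NRF2, encoded by *Nfe2l2*, is a transcription factor that KEAP1 marks for degradation under resting conditions. Oxidants and electrophiles modify KEAP1, NRF2 then accumulates, pairs with small MAF proteins and binds antioxidant response elements near genes of glutathione synthesis, NADPH supply and detoxification. Glutathione, a tripeptide made in large amounts by the liver, is consumed by peroxidases that reduce peroxides and by transferases that attach it to foreign compounds. NRF2 activity is set largely at the protein level, so the transcript of *Nfe2l2* itself is not a measure of it.

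Libraries held 30350002 to 35295611 counts, and 3 counts in a library, the floor used here, corresponded to 0.0763 to 0.119 CPM (counts relative to library size, adjusted by the trimmed mean of M values, TMM). This floor covers counting error only, whereas SD and SE include the spread between mice. *Spns1* counts were 1008, 1562 and 875 in control and 642, 1175 and 698 in g*Spns1*-cKO livers, with a log2 fold change of -0.87 (SE 0.25, adjusted p = 0.0300). The groups did not overlap in CPM, and transcripts remained in every mutant. The whole-liver RNA differed in its cell type markers. Hepatocyte markers summed to 107650 to 117990 CPM in control and 61323 to 69580 CPM in g*Spns1*-cKO livers (7 of 8 lower), and macrophage markers to 202 to 326 and 657 to 925 CPM (8 of 8 higher). Stellate cell and fibroblast markers (5 of 7 higher) summed to 155 to 187 and 455 to 485 CPM, cholangiocyte markers (6 of 7 higher) to 59.3 to 77.7 and 187 to 300.1 CPM, endothelial markers (5 of 6 higher) to 137 to 153 and 202 to 249 CPM. Neutrophil markers stayed low at 1.96 to 4.22 and 5.53 to 10.3 CPM (3 of 3 tested higher), erythroid markers overlapped at 132 to 155 and 83.4 to 193 CPM (2 higher and 1 lower of 5 tested) and cell cycle markers at 3.09 to 6.60 and 2.35 to 11.4 CPM (0 of 4 tested). *Xist* reached at most 5 counts in any library and 4 Y-linked genes summed to 129 to 161 CPM in control and 146 to 154 CPM in mutant livers. By these transcripts all 6 livers read as male, so the groups did not differ in sex. Genes known as male-biased in mouse liver summed to 7033 to 12889 CPM in control and 465 to 796 CPM in mutant livers (6 of 7 lower), and female-biased genes were at 0.649 to 1.86 CPM in control and 96.8 to 1081 CPM in mutant livers (5 of 5 tested higher, of 8 listed). Among the markers called, *Sult1e1*, *Sult3a1* and the cholangiocyte marker *Cldn4* reached 10 counts only in mutants, and *Mup7*, *Mup12* and *Hsd3b5* only in controls. The direction of these genes was fixed by the filter. The part of these shifts in the results was not tested. In bulk liver, fewer cells of a type and less RNA per cell cannot be told apart.

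Of the 46 members tested, 10 rose and 12 fell in g*Spns1*-cKO livers, and 24 did not pass an adjusted p of 0.05 (edgeR quasi-likelihood test, Benjamini-Hochberg over all genes tested). That is 21.7% higher and 26.1% lower, beside 21.3% and 20.5% of all genes tested (41.8% in either direction), so the share of members called was close to that of the genome at large for the higher and a little above it for the lower ones. *Slc7a11* and *Mgst2*, which could enter the test only by being high in the mutants, are among the 10. Without such genes 8 of 44 members rose (18.2%) and 12 fell (27.3%), beside 19.7% and 20.7% of 14884 genes, and the median of members was 0.14. The median log2 fold change of the members was 0.20, and it was 0.01 over all genes. CPM values of the groups did not overlap for 14 members in the higher and 13 in the lower direction, which is 30.4% and 28.3%, beside 27.1% and 26.9% of all genes (54.1% in either direction). With scaling by library size alone the split of members was 21 higher to 7 lower, and the median of all genes then moved from 0.01 to 0.46, so the changes described here are relative to the bulk of transcripts. The module did not move one way. Beside *Slc7a11* and *Mgst2*, the genes *Gss*, *Nqo1*, *G6pdx*, *Gpx3*, *Sod3*, *Gsta1*, *Gsta2* and *Mgst3* rose, whereas *Txn1*, *Ephx1*, *Taldo1*, *Gpx1*, *Cat*, *Sod1*, *Sod2*, *Gstp1*, *Gstp2*, *Gstt1*, *Gstk1* and *Mgst1* fell.

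**Figure D1:**
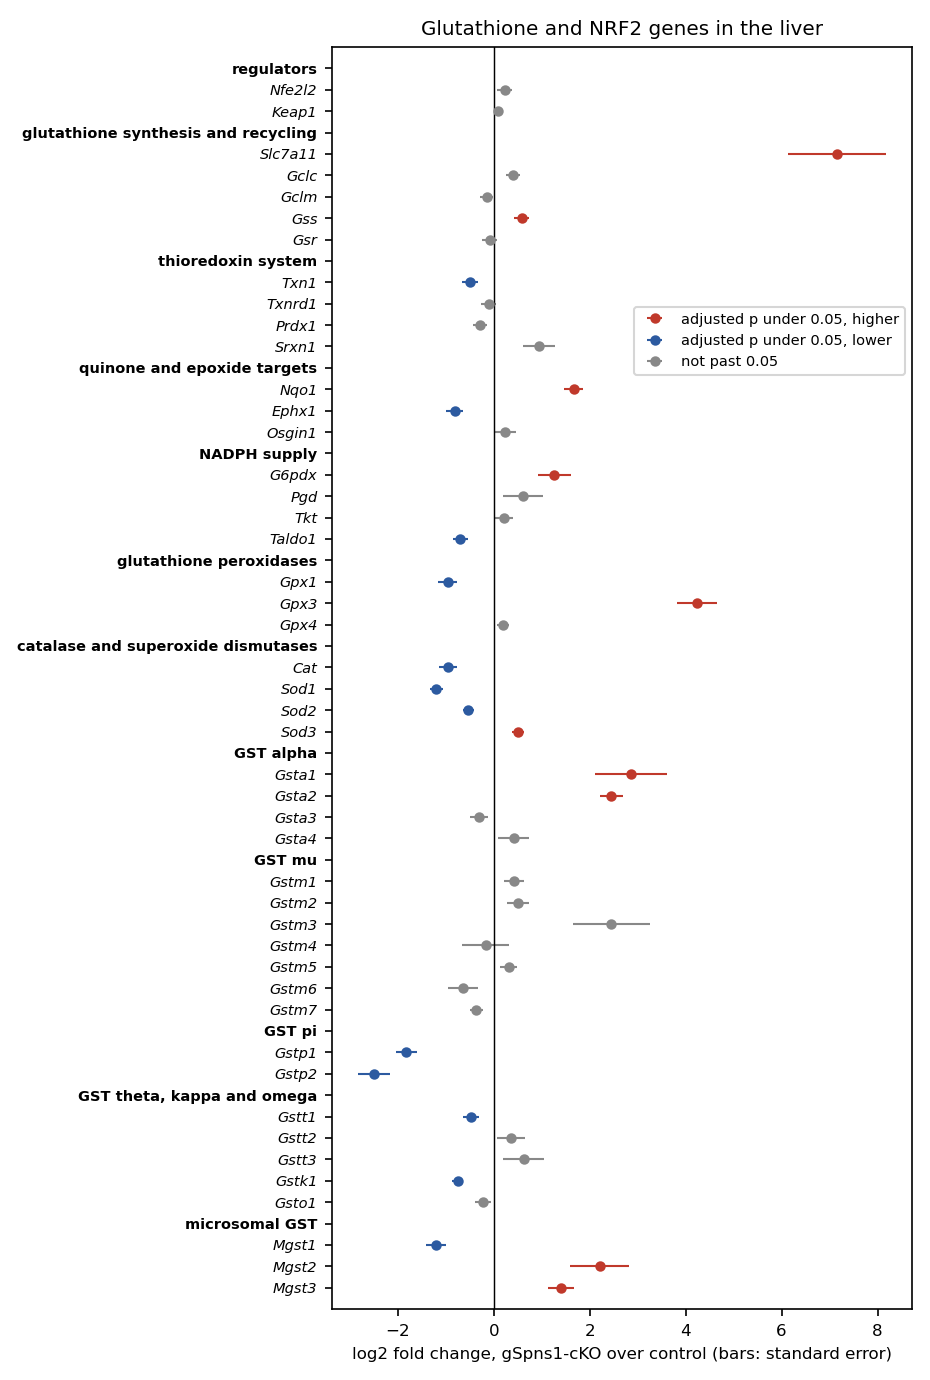
Fitted log2 fold change of g*Spns1*-cKO over control liver (x axis) for the 46 members tested, grouped by role, with bars giving 1 standard error (n = 3 mice per group). Red marks members higher, blue members lower and grey members not past an adjusted p of 0.05. Red and blue points occur within the same role group among the quinone and epoxide targets, NADPH suppliers, peroxidases, dismutases and microsomal transferases. The fitted values of *Slc7a11* and *Mgst2* rest on at most 3 counts in each control library and are not bounds.

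Promoter sequences show what the members share in sequence, independently of their level. The core of the antioxidant response element, TGACNNNGC, was searched on both strands in windows of 300 bases, from 250 before to 50 after the start site (RefSeq, GRCm38.p6). At least 1 window was given for 43 members, and 13 of them (30.2%) held the core, compared with 3781 of 27025 genes (14.0%). A gene could have several windows and was counted when any of them held the core. The 13 were *G6pdx*, *Gclm*, *Ggt1*, *Gsta3*, *Gstm5*, *Gstm7*, *Mgst1*, *Nfe2l2*, *Pgd*, *Prdx1*, *Sod1*, *Srxn1* and *Txnrd1*. Among these, *Ggt1*, *Gstm7*, *Mgst1*, *Pgd* and *Txnrd1* also had a window without the core. By call, the core was found in 1 of 9 members that rose, 2 of 12 that fell and 9 of 20 that did not pass the threshold. A match is a description of the letters and not evidence of binding. Windows are printed for the member with a match that rose (*G6pdx*, chrX:74428831-74429130, minus strand), both that fell (*Sod1*, chr16:90220512-90220811, plus strand, and *Mgst1*, chr6:138140277-138140576, plus strand), a glutathione synthesis gene that did not pass the threshold (*Gclm*, chr3:122245307-122245606, plus strand) and *Nqo1* (chr8:107403156-107403455, minus strand), which rose and has no match in this window. Each reads 5′ to 3′ along the gene, with the match in capitals. All 4 matches lie on the opposite strand and so read as the reverse complement, starting at position -57 in *G6pdx*, -56 in *Sod1* and in *Mgst1* and -134 in *Gclm*, where the start site is 0.
G6pdx: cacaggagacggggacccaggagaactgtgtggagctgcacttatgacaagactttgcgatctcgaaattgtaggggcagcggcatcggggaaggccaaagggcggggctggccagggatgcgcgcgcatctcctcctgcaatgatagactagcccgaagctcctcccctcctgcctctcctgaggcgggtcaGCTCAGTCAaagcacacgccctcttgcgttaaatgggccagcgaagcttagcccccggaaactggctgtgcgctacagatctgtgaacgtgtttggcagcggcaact
Sod1: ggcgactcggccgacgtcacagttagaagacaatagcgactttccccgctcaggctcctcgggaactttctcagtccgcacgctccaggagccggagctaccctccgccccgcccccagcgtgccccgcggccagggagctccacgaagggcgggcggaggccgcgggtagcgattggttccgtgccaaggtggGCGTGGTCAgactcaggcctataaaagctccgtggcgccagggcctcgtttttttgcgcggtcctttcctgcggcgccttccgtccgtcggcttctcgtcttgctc
Mgst1: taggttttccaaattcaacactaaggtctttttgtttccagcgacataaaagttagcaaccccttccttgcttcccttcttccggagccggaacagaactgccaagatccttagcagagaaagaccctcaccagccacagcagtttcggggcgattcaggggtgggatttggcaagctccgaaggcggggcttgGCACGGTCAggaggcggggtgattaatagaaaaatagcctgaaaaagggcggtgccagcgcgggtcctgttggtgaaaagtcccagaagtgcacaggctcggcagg
Gclm: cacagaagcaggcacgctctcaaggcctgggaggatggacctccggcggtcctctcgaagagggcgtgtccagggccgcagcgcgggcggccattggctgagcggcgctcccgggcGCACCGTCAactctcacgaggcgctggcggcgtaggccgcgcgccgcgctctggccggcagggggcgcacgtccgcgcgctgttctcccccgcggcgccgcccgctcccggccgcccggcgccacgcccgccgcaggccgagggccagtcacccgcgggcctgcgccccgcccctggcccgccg
Nqo1: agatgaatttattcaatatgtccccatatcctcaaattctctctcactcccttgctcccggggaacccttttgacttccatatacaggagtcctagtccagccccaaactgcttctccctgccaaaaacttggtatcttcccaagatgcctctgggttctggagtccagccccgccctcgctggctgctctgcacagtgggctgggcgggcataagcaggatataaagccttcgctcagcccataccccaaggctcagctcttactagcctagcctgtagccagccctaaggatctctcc

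The regulators showed no change past the threshold. *Nfe2l2* (chr2:75675513-75704641, GRCm38) counts were 2448, 1810 and 1519 in control and 3014, 3001 and 3070 in g*Spns1*-cKO livers, or 68.6 ± 16.0 and 80.0 ± 3.25 CPM (SD, n = 3). Control mouse 1 lay above all 3 mutants, and the log2 fold change was 0.22 (SE 0.15, adjusted p = 0.263). *Keap1* counts were 1583, 1882 and 1506 in control and 2251, 2349 and 2518 in mutant livers, or 59.0 ± 2.45 and 62.6 ± 1.42 CPM. The mutants lay just above the controls, with a log2 fold change of 0.09 (SE 0.10, adjusted p = 0.498).

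Among genes of glutathione synthesis and recycling, 1 of the 4 that had counts enough in both groups rose and none fell. This stands beside 19.7% and 20.7% of all genes with such counts. The median log2 fold change of the 4 was 0.15. *Slc7a11* (chr3:49892526-50443614) encodes the light chain of the cystine importer that feeds cysteine into glutathione, and it is barely expressed in healthy liver. It had 1, 0 and 0 counts in control and 102, 25 and 125 in g*Spns1*-cKO livers. Against the floor of 3 counts per control library this is at least 20.7-fold higher, a description without a test since the filter took the gene for its mutant counts, and mutant mouse 2 held the lowest of the mutant values. Glutathione synthetase *Gss* (chr2:155563181-155592810), which adds glycine in the last step of synthesis, had 1866, 2907 and 2219 counts in control and 3809, 4931 and 5366 in mutant livers. The level was 82.8 ± 14.6 and 124 ± 15.9 CPM, and the log2 fold change of 0.58 passed the test (SE 0.15, adjusted p = 0.0117), with no overlap. Exons of *Gss* overlap those of *Acss2* on the opposite strand over 395 of 5915 bases. *Acss2* had 275.1% of the counts of *Gss*, and whether counting used strand is not given in the sources used here.

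The enzyme of the first and rate-limiting step has a catalytic subunit, *Gclc*, and a modifier, *Gclm*, both classical NRF2 targets. *Gclc* counts were 4725, 4265 and 4431 in control and 7788, 6738 and 9383 in g*Spns1*-cKO livers, or 161 ± 19.4 and 210.3 ± 32.0 CPM. Every mutant was above every control, mutant mouse 2 by a small margin, and the log2 fold change of 0.39 (SE 0.15) missed the threshold (adjusted p = 0.0548). *Gclm* had 5909, 7220 and 6698 counts in control and 7571, 7652 and 8954 in mutant livers, or 236 ± 27.3 and 213 ± 14.3 CPM, with overlapping groups and a log2 fold change of -0.15 (SE 0.13, adjusted p = 0.364). Glutathione reductase *Gsr*, which regenerates reduced glutathione, had 2605, 2671 and 2107 counts in control and 3680, 2492 and 3136 in mutant livers, or 87.6 ± 4.75 and 82.3 ± 18.8 CPM. Its mutants spread to both sides of the controls (log2 fold change -0.09, SE 0.15, adjusted p = 0.674). *Ggt1*, which cleaves glutathione outside the cell, had no counts in the controls and 4, 16 and 10 in the mutants, at least 2.43-fold higher when the controls are set at the floor, and was not tested.

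In the thioredoxin system 1 of 4 genes fell and none rose, beside 20.5% and 21.3% of all genes tested. Thioredoxin *Txn1*, which reduces protein disulfides, had 7970, 7230 and 6279 counts in control and 8015, 5747 and 6623 in g*Spns1*-cKO livers. Scaled to CPM it fell from 255 ± 25.2 to 180.4 ± 37.9 with no overlap, a log2 fold change of -0.50 (SE 0.16, adjusted p = 0.0283). *Txnrd1*, the NADPH-dependent reductase of thioredoxin, had 4626, 6098 and 4714 counts in control and 7211, 5203 and 6743 in mutant livers, or 183 ± 17.0 and 169 ± 32.5 CPM. The groups overlapped (log2 fold change -0.11, SE 0.15, adjusted p = 0.583). Sulfiredoxin *Srxn1*, which repairs overoxidised peroxiredoxins, had 1248, 1391 and 978 counts in control and 3977, 1692 and 3600 in mutant livers, or 42.7 ± 3.56 and 82.1 ± 34.2 CPM. Mutant mice 1 and 3 were well above the controls and mutant mouse 2 lay within them, so the log2 fold change of 0.94 (SE 0.33) did not pass (adjusted p = 0.0675). The peroxiredoxin *Prdx1* was lower in every mutant without passing (log2 fold change -0.29, adjusted p = 0.122).

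*Nqo1* (chr8:107388225-107403206), a quinone reductase used widely as a readout of NRF2 activity, had 224, 137 and 141 counts in control and 632, 707 and 829 in g*Spns1*-cKO livers. Its level rose from 5.996 ± 1.80 to 19.0 ± 1.84 CPM, 3.18-fold, with a log2 fold change of 1.67 (SE 0.20, adjusted p = 0.000179). The lowest mutant stood far above the highest control. *Ephx1*, the microsomal epoxide hydrolase of hepatocytes and also an NRF2 target, went the other way. It had 12376, 13825 and 9294 counts in control and 10689, 7006 and 9135 in mutant livers, and fell from 419 ± 44.8 to 237 ± 57.4 CPM (log2 fold change -0.82, SE 0.18, adjusted p = 0.00494) with no overlap. *Osgin1*, an oxidative stress response gene linked to growth inhibition, overlapped between the groups (log2 fold change 0.23, adjusted p = 0.474).

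NADPH supplies the electrons for both glutathione and thioredoxin reductase, and the pentose phosphate pathway is a main source of it. *G6pdx* (chrX:74409483-74429194), the entry enzyme, had 238, 132 and 82 counts in control and 553, 388 and 506 in g*Spns1*-cKO livers. Levels of 5.33 ± 2.76 and 12.8 ± 2.63 CPM gave a log2 fold change of 1.26 (SE 0.35, adjusted p = 0.0241), and mutant mouse 2 was only a little above control mouse 1. Its exons overlap *Ikbkg* on the opposite strand over 418 of 3080 bases, and *Ikbkg* had 728.5% of its counts and a log2 fold change of -0.35 (adjusted p = 0.132). The next oxidative enzyme *Pgd* (log2 fold change 0.60, adjusted p = 0.295) and the transketolase *Tkt* (0.21, adjusted p = 0.412) overlapped between the groups. Transaldolase *Taldo1*, of the non-oxidative branch, had 6373, 6424 and 4922 counts in control and 5681, 4262 and 4672 in mutant livers. It fell from 209.9 ± 16.1 to 129 ± 25.1 CPM with no overlap (log2 fold change -0.70, SE 0.15, adjusted p = 0.00406).

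Glutathione peroxidases moved in opposite directions. *Gpx3* (chr11:54902453-54910377), which encodes the secreted plasma peroxidase made mainly by the kidney, had 306, 733 and 315 counts in control and 7211, 13522 and 13351 in g*Spns1*-cKO livers. Its level rose 18.9-fold from 15.7 ± 7.05 to 298 ± 84.3 CPM (log2 fold change 4.24, SE 0.41, adjusted p = 0.000681), with all mutants far above all controls. *Gpx1* (chr9:108338903-108340343), the abundant cytosolic enzyme of hepatocytes, had 57366, 87797 and 75035 counts in control and 57369, 43997 and 50719 in mutant livers. Scaled to CPM it fell 1.95-fold from 2619 ± 504 to 1344 ± 229 (log2 fold change -0.96, SE 0.20, adjusted p = 0.00329), again with no overlap. *Gpx4*, which reduces lipid hydroperoxides in membranes, was slightly above the controls in every mutant (log2 fold change 0.19, adjusted p = 0.244). Of its stretches of 100 bases, 48.4% also occur in other annotated transcripts, chiefly *Gpx4-ps2*, so its count is uncertain. *Gpx2*, a peroxidase of gut epithelium, had 4, 4 and 0 counts in control and 21, 16 and 8 in mutant livers. Within the 4 peroxidases the share of *Gpx3* in the counts was 0.523 ± 0.192% in control and 14.9 ± 5.06% in mutant livers, and that of *Gpx1* was 87.7 ± 1.495% and 65.6 ± 6.10%. The groups did not overlap for either share, and the exact two-sided permutation test gave p = 0.1, the smallest that 3 against 3 allows. These shares do not depend on library scaling.

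Of catalase and the 3 superoxide dismutases, 3 genes fell and 1 rose, beside 20.5% and 21.3% of all genes tested. *Sod1*, the cytosolic dismutase, had 37216, 37867 and 32042 counts in control and 18481, 21973 and 22375 in g*Spns1*-cKO livers, and fell 2.31-fold from 1273 ± 47.4 to 552 ± 33.1 CPM (log2 fold change -1.21, SE 0.14, adjusted p = 0.000122). *Cat*, the peroxisomal enzyme that removes hydrogen peroxide, had 75401, 60765 and 65154 counts in control and 53418, 39336 and 47118 in mutant livers, and fell from 2409.9 ± 382 to 1236 ± 232 CPM (log2 fold change -0.96, SE 0.19, adjusted p = 0.00281). Mitochondrial *Sod2* had 6838, 6614 and 6367 counts in control and 5665, 6205 and 6653 in mutant livers, or 237 ± 19.3 and 163 ± 5.96 CPM (log2 fold change -0.54, SE 0.12, adjusted p = 0.00451). For all 3 genes every mutant was below every control in CPM, while the unscaled counts of *Sod2* overlapped. Extracellular *Sod3* rose in contrast, from 822, 1278 and 912 to 1774, 2038 and 1921 counts, or 35.6 ± 6.14 to 50.4 ± 2.34 CPM (log2 fold change 0.50, SE 0.13, adjusted p = 0.0113), with no overlap. The share of *Sod3* in the counts of the 3 dismutases was 2.32 ± 0.481% in control and 6.60 ± 0.343% in mutant livers (exact two-sided permutation p = 0.1, the smallest possible).

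**Figure D2:**
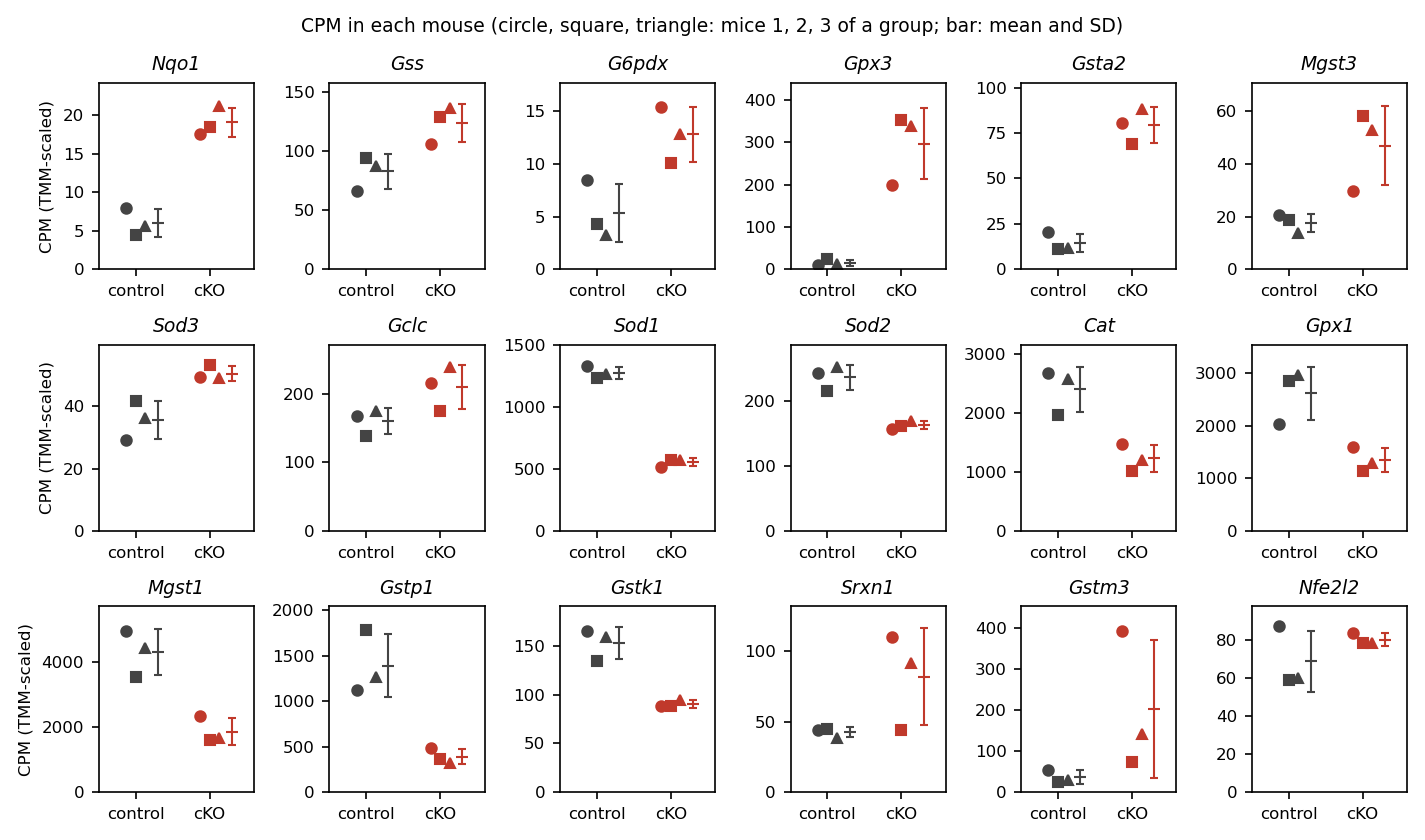
CPM (y axis, TMM-scaled, starting at 0, with its own scale in each panel) of 18 members in each control (grey) and g*Spns1*-cKO (red) mouse, where circle, square and triangle are mice 1, 2 and 3 of a group and the bar gives mean and SD (n = 3). *Gpx3* lies between 10.9 and 23.8 in control and between 200.4 and 352 in mutant livers, *Sod1* between 1229.7 and 1324 and between 514 and 573, and for *Srxn1* mutant mouse 2 sits at the level of the controls.

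Glutathione transferases made up 21 of the members. Of the 20 with counts enough in both groups, 3 rose and 5 fell (15% and 25%). This was near the 19.7% and 20.7% of all genes with such counts. In the alpha family *Gsta2* (chr9:78331018-78355788) and its neighbour *Gsta1*, detoxifying enzymes inducible through NRF2, both rose. *Gsta2* had 572, 348 and 303 counts in control and 2906, 2643 and 3476 in g*Spns1*-cKO livers, 14.5 ± 5.04 and 79.4 ± 9.85 CPM (log2 fold change 2.45, SE 0.23, adjusted p = 0.000173). *Gsta1* had 23, 64 and 14 counts in control and 407, 106 and 449 in mutant livers, 1.15 ± 0.815 and 8.50 ± 4.97 CPM (log2 fold change 2.86, SE 0.76, adjusted p = 0.0307), and mutant mouse 2 was barely above control mouse 2. *Gsta1* is uncertain as a separate gene, since 81.8% of its stretches of 100 bases also occur in *Gm3776*, *Gsta2* or *Gm10639*. Summed over these 4 genes, a choice made after the data were seen, the log2 fold change was 2.49 (SE 0.23, adjusted p = 0.000144). The abundant *Gsta3* (log2 fold change -0.31, adjusted p = 0.198) and the lipid aldehyde-conjugating *Gsta4* (0.41, adjusted p = 0.358) overlapped between the groups. The family as a sum, which *Gsta3* dominates, had a log2 fold change of -0.22 (SE 0.18, adjusted p = 0.344), while *Gsta1* and *Gsta2* together made up 0.713 ± 0.181% of its counts in control and 4.84 ± 1.41% in mutant livers (exact two-sided permutation p = 0.1, the smallest possible).

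None of the 7 mu genes passed the threshold, beside 41.8% of all genes tested that passed it in either direction. *Gstm3*, strongly inducible in mouse liver, had 1565, 757 and 784 counts in control and 14151, 2809 and 5544 in g*Spns1*-cKO livers, or 37.1 ± 16.4 and 203 ± 169 CPM. All mutants exceeded all controls, but the mutants differed among themselves several times over and the log2 fold change of 2.45 (SE 0.79) was not past the threshold (adjusted p = 0.0700). The main liver form *Gstm1* (log2 fold change 0.41, adjusted p = 0.135), *Gstm2* (0.51, adjusted p = 0.114) and *Gstm5* (0.31, adjusted p = 0.177) had positive values. *Gstm4* (-0.17, adjusted p = 0.814), *Gstm6* (-0.65, adjusted p = 0.148) and *Gstm7* (-0.37, adjusted p = 0.0525) had negative ones. An antisense gene, 4933431E20Rik, overlaps exons of *Gstm5* and had 24.97% of its counts. The mu family as a sum had a log2 fold change of 0.41 (SE 0.23, adjusted p = 0.172).

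Both pi genes fell, beside 20.5% of all genes tested, with the lowest log2 fold changes of the 46 members tested. *Gstp1* (chr19:4035407-4037921), known to be expressed at a higher level in male than in female mouse liver, had 31676, 55086 and 32104 counts in control and 17582, 14225 and 12651 in g*Spns1*-cKO livers. It fell 3.54-fold from 1395 ± 349 to 394 ± 85.8 CPM (log2 fold change -1.82, SE 0.22, adjusted p = 0.000177). *Gstp2* next to it had 634, 386 and 240 counts in control and 81, 97 and 121 in mutant livers, and fell 5.66-fold from 14.9 ± 6.84 to 2.62 ± 0.421 CPM (log2 fold change -2.50, SE 0.33, adjusted p = 0.000691). Neither gene overlapped between the groups. Both share sequence with each other and with *Gstp-ps*, over 52.8% of the stretches of *Gstp1* and 63.5% of those of *Gstp2*. The sum of all 3, chosen after the data were seen, had a log2 fold change of -1.83 (SE 0.21, adjusted p = 0.000138). Beside these values stands the fall of the male-biased genes given above, whose part in this result was not tested.

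Of the theta, kappa and omega transferases 2 of 5 fell, beside 20.5% of all genes tested. Kappa *Gstk1*, found in mitochondria and peroxisomes, had 4641, 4134 and 4019 counts in control and 3180, 3372 and 3717 in g*Spns1*-cKO livers, 153 ± 16.3 and 90.3 ± 3.71 CPM (log2 fold change -0.76, SE 0.12, adjusted p = 0.000666). Theta *Gstt1* had 10307, 7524 and 6393 counts in control and 6894, 8250 and 8522 in mutant livers, 288 ± 68.3 and 208 ± 14.0 CPM (log2 fold change -0.47, SE 0.17, adjusted p = 0.0424). In both genes every mutant was below every control in CPM, for *Gstt1* by a clear margin only against control mouse 1. *Gstt2* (log2 fold change 0.36, adjusted p = 0.357), *Gstt3* (0.62, adjusted p = 0.306) and *Gsto1* (-0.22, adjusted p = 0.315) overlapped between the groups.

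Of the microsomal transferases with counts enough in both groups, 1 fell and 1 rose, beside 20.7% and 19.7% of all genes with such counts. *Mgst1* (chr6:138140316-138156755), which protects membranes of the endoplasmic reticulum and mitochondria, had 139339, 109022 and 111725 counts in control and 84121, 61720 and 64999 in g*Spns1*-cKO livers. It fell 2.31-fold from 4304 ± 714 to 1867 ± 409 CPM (log2 fold change -1.21, SE 0.20, adjusted p = 0.00117) with no overlap. *Mgst3* rose from 577, 579 and 353 counts to 1075, 2225 and 2075, or 17.8 ± 3.41 to 46.9 ± 15.0 CPM (log2 fold change 1.40, SE 0.27, adjusted p = 0.00627). *Mgst2*, related to leukotriene C4 synthase, had 3, 3 and 1 counts in control and 10, 20 and 15 in mutant livers. That is 3.66-fold higher when the controls are set at the floor, again a description without a test. Control mice 1 and 2 reached this floor, so the value is not a lower bound.

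The make-up of the transferase counts was also compared as shares within each library, which no library scaling affects. *Mgst1* took 40.4 ± 3.14% of the counts of the 21 transferase genes in control and 25.0 ± 2.87% in g*Spns1*-cKO livers, and the pi family 13.6 ± 4.63% and 5.31 ± 0.672%. The mu family took 18.8 ± 2.58% and 35.7 ± 5.71%. For these 3 shares the groups did not overlap (exact two-sided permutation p = 0.1 each, the smallest possible). The alpha family held 20.7 ± 1.33% and 25.8 ± 6.82%, with overlap (p = 0.4 in the same exact test). Shares of a fixed whole depend on each other, so a larger mu share does not by itself mean a higher mu level. In the edgeR fit the summed mu family overlapped between the groups and did not pass (log2 fold change 0.41, adjusted p = 0.172). Per kilobase of gene length, the members with the highest level in control livers were *Mgst1* (2138 CPM per kilobase), *Gstp1* (1842), *Gpx1* (1817), *Gstm1* (1109), *Cat* (922) and *Gsta3* (488). In mutant livers the order was *Gstm1* (1477 CPM per kilobase), *Gpx1* (933), *Mgst1* (927), *Gstp1* (520), *Cat* (473) and *Gsta3* (394). Neighbours such as *Gstp1* and *Gpx1* in control livers, or *Gpx1* and *Mgst1* in mutant livers, did not differ beyond their spread.

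**Figure D3:**
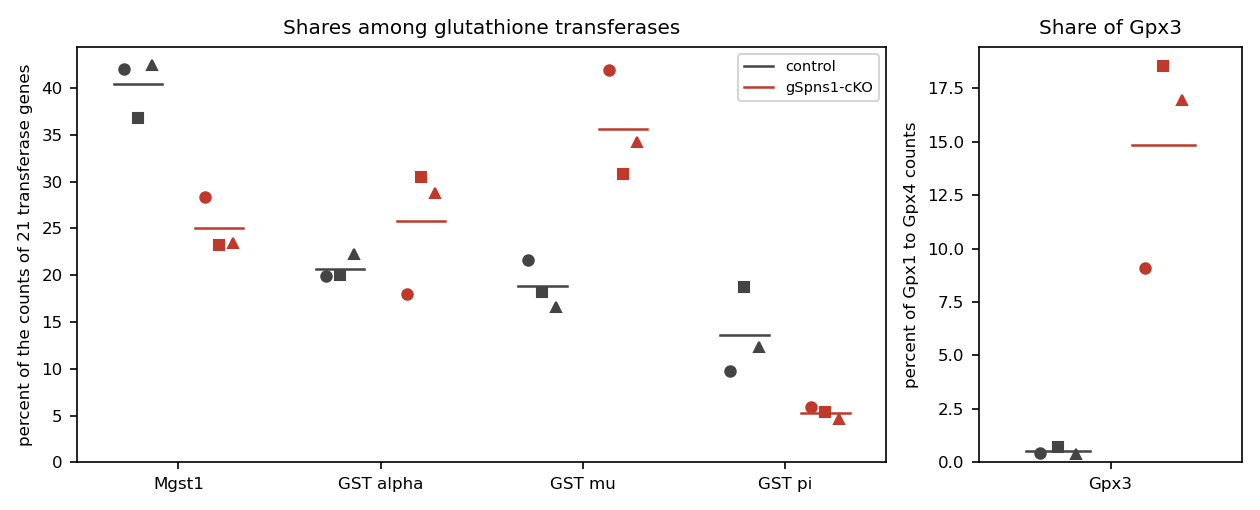
Percent of the summed counts (y axis, starting at 0) taken by *Mgst1* and by the alpha, mu and pi families among the 21 transferase genes (left), and by *Gpx3* among the 4 glutathione peroxidases (right), in control (grey) and g*Spns1*-cKO (red) mice. Circle, square and triangle are mice 1, 2 and 3 of a group, and the line is the group mean. The mu family lies between 16.6% and 21.6% in control and between 30.8% and 42.0% in mutant livers, whereas the alpha family overlaps.

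Members varied between mice of a group in a shared way. g*Spns1*-cKO mouse 2 had the lowest mutant CPM in 26 of the 46 members tested (56.5%), compared with 34.7% of all genes, and among these were *Srxn1*, *Slc7a11*, *Gsta1*, *Pgd* and *Gstm3*. Control mouse 1 had the highest control CPM in 30 of 46 members (65.2%), compared with 34.0% of all genes. These shares are a description, since members are not independent of each other.

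**Figure D4:**
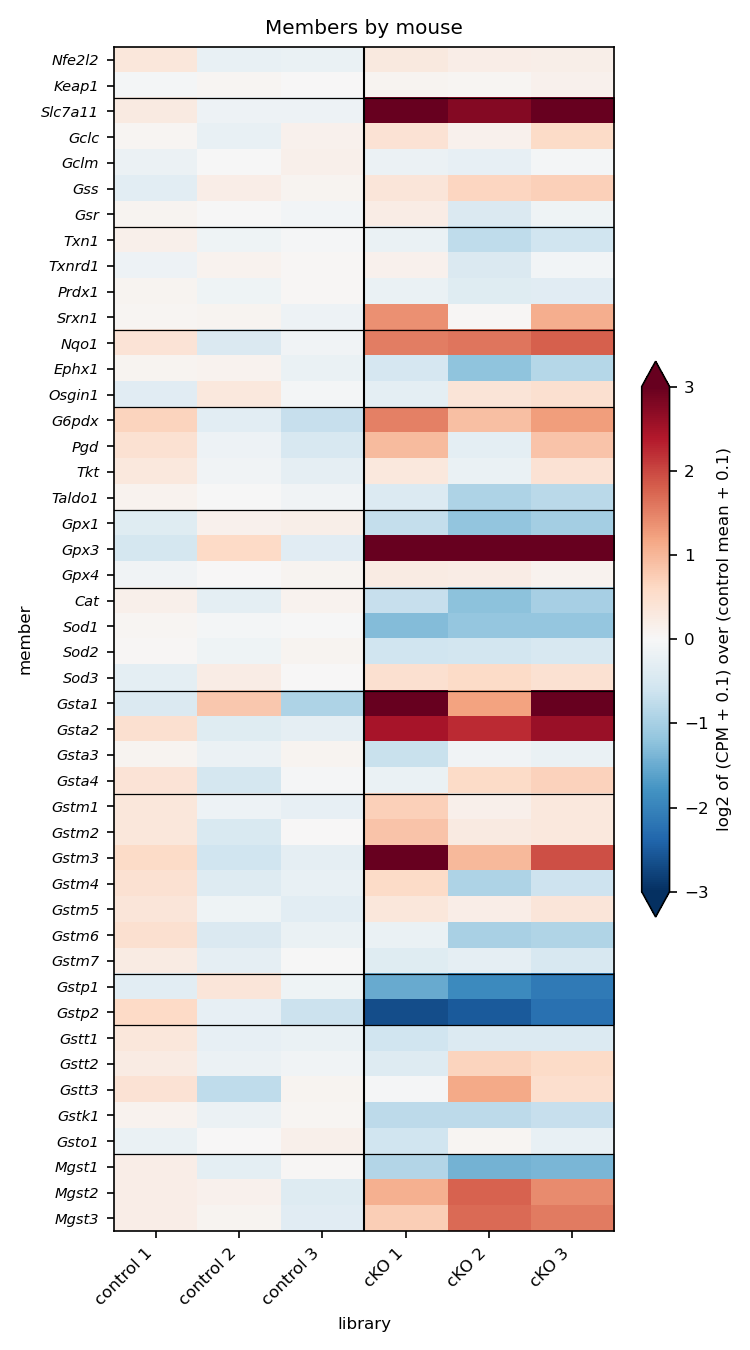
Level of the 46 members tested (y axis, in role order with lines between role groups) in each of the 6 libraries (x axis), as log2 of CPM + 0.1 over the control mean + 0.1, with colours saturating at 3 and -3. *Gpx3*, *Gsta2*, *Slc7a11* and *Nqo1* are red in all 3 mutants, *Gstp1*, *Gstp2*, *Sod1* and *Mgst1* blue in all 3, and mutant mouse 2 is paler than mice 1 and 3 for *Srxn1*, *Gsta1* and *Gstm3*.

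Other genes of the pathway, listed by function, were read in the same fit. Of 20 other NRF2 targets 8 rose and 2 fell, beside 21.3% and 20.5% of all genes, with a median log2 fold change of 0.26. With scaling by library size alone 13 were higher and 0 lower. *Trim16*, 1 of the 8, reached the count minimum in mutants only. Heme oxygenase *Hmox1*, which NRF2 induces and which macrophages also express, had 347, 536 and 385 counts in control and 2025, 2133 and 2184 in the mutants. Its RNA levels were 15.0 ± 2.54 and 55.8 ± 0.412 CPM (log2 fold change 1.90, SE 0.13, adjusted p = 7.56e-06). The study's Western blots of g*Spns1*-cKO livers, in contrast, found HMOX1 protein unaltered. Transcripts of the carbonyl reductase *Cbr3* (log2 fold change 3.02, adjusted p = 0.00218), the efflux pump *Abcc4* (2.95, adjusted p = 0.00767) and the aldose reductase-like *Akr1b8* (1.48, adjusted p = 0.000327) rose as well. The 2 that fell were *Idh1* (-0.44, adjusted p = 0.045) and *Esd* (-0.44, adjusted p = 0.0241). *Me1* had the lowest log2 fold change of the 20 (-1.78), with every mutant below every control, but did not pass (adjusted p = 0.149). CPM of the groups did not overlap for 9 of the 20 in the higher and 4 in the lower direction, beside 27.1% and 26.9% of all genes. Of 9 partners and repressors of NRF2, 1 rose and 2 fell, which is not above the shares of all genes by more than a gene. The small MAF gene *Maff* rose (0.50, adjusted p = 0.0216), while the related factor *Nfe2l1* (-0.57, adjusted p = 0.00786) and *Rbx1*, of the ligase that KEAP1 recruits (-0.33, adjusted p = 0.0281), fell.

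Among 18 other peroxiredoxins, thioredoxins and glutaredoxins and their partners 3 rose and 10 fell, with a median log2 fold change of -0.32, beside 21.3% and 20.5% of all genes. With scaling by library size alone the balance turned to 7 higher and 4 lower. The thioredoxin inhibitor *Txnip* (log2 fold change -1.30, adjusted p = 0.00757) and the reductase *Txnrd3* (-1.02, adjusted p = 0.000790) fell, and *Gpx8* of the endoplasmic reticulum rose (0.95, adjusted p = 0.0370). Of 8 genes of methionine metabolism, which also yields cysteine, 4 fell and none rose, beside 20.5% and 21.3% of all genes, with a median of -0.81. This also depended on scaling, with 2 higher and 1 lower by library size alone, and without control mouse 2 there were 2 lower. The 4 genes were the methyltransferase *Gnmt* (-1.12, adjusted p = 0.000268), cystathionine beta-synthase *Cbs* (-1.05, adjusted p = 0.0173), *Ahcy* (-0.86, adjusted p = 0.0261) and *Cth* (-0.77, adjusted p = 0.00900), which releases cysteine. Of 10 genes of glutathione breakdown 3 rose and 4 fell, beside 21.3% and 20.5% of all genes, with a median of -0.44. Among the 3, *Ggt7* reached the count minimum in mutants only. The dipeptidase *Dpep1* (2.44, adjusted p = 0.000239) and *Ggt5* (1.61, adjusted p = 0.000103) rose, both from under 4 CPM in every control. The 4 that fell had higher control levels. They were *Oplah* (-1.29, adjusted p = 0.000608), *Anpep* (-0.87, adjusted p = 0.000374), *Lap3* (-0.74, adjusted p = 0.00354) and *Ggt6* (-0.64, adjusted p = 0.00531). Of 4 other transferases tested, 1 rose and 1 fell, beside 21.3% and 20.5% of all genes. *Hpgds*, the hematopoietic prostaglandin D synthase, rose (3.22, adjusted p = 5.06e-05) and *Gstz1*, of tyrosine breakdown, fell (-0.73, adjusted p = 0.00288).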

How the data were processed

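RNA was extracted from whole liver, poly-A selected and sequenced by a commercial service. According to the submitters' processing notes the tools were fastp, HISAT2 2.0.5 and featureCounts 1.5.0-p3 with the mm10 build, and the strand setting of counting is not given in the sources used here. The authors deposited whole-number counts per gene for each mouse, not normalized, together with FPKM values, which divide counts by gene length and library total. The table also holds the authors' own comparison, which was not used. Of the deposited columns, only counts entered the tests, and gene lengths only the levels per kilobase. Groups came from the genotype labels (3 control, 3 g*Spns1*-cKO). Nothing in the labels gives more than 1 library per mouse, so p-values measure the spread between these samples.

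Counts were filtered (filterByExpr), TMM-scaled and tested with the quasi-likelihood test of edgeR 4.0.16 in R 4.3.3, with Benjamini-Hochberg adjustment over 15449 genes and a threshold of 0.05. SE is the standard error of the log2 fold change. The script was tested on simulated data. Alternatives were DESeq2 1.42.0, limma-voom (limma 3.58.1), other scalings, filters and thresholds, a replicate block and leaving out each mouse. Medians and shares of lists are descriptions without a test. Every member was given at least its fold change or counts. Full values were given for *Nfe2l2*, *Keap1*, *Nqo1*, *Gclc*, *Gclm*, *Slc7a11*, *Gsr*, *Txnrd1* and *Srxn1*, for up to 3 members past the threshold with the largest change in each role group, and also for *Sod3*. From each companion list up to 3 such genes were named, and *Hmox1*. *Cth*, *Idh1*, *Esd*, *Oplah*, *Anpep*, *Lap3* and *Ggt6* were added after their values were seen, to complete the counts of genes that fell. The members and lists were chosen with earlier results of these data known. Coordinates of 46 of 48 members were the same in GENCODE M21 (GRCm38). A gene had counts enough in both groups where at least 1 library of each held 10 counts. Shared sequence was counted as stretches of 100 bases of a member's transcript that occur in transcripts of other genes.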

Additional observations from a re-analysis of the deposited data

How the results depend on the processing

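Of the 22 members called, 13 kept direction and call in every one of 13 settings that tested them (*Slc7a11*, which only its mutant counts brought into the test, *Nqo1*, *Gpx1*, *Gpx3*, *Cat*, *Sod1*, *Sod3*, *Gsta2*, *Gstp1*, *Gstp2*, *Gstk1*, *Mgst1* and *Mgst3*). The others lost the call in at least 1 setting. *Ephx1*, *Taldo1* and *Sod2* lost it only with scaling by library size alone, and *Gss* only without mutant mouse 3. *G6pdx* lost it without control mouse 2 or mutant mice 1 or 3, *Mgst2* without control mouse 3 or mutant mice 2 or 3. *Txn1* and *Gsta1* lost it in 6 settings each and *Gstt1* in 9. *Gclc*, *Srxn1* and *Gstm3*, not called here, were called with DESeq2 and with scaling by library size alone. *Gclc* was also called with upper-quartile factors, with both other filters, with the replicate block and without mutant mouse 2, *Srxn1* with upper-quartile factors, limma-voom and without mutant mouse 2, and *Gstm3* with limma-voom and the replicate block.

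With scaling by library size alone 7289 genes were higher and 970 lower, members were 21 higher and 7 lower, companion genes 32 higher and 7 lower (16 and 23 with TMM), and the median of members was 0.64 beside 0.46 for all genes. The summed alpha family then turned to 0.22 (adjusted p = 0.315), the mu family reached 0.85 and passed (adjusted p = 0.00978), and *Gclm* (0.29), *Gsr* (0.35), *Txnrd1* (0.33), *Prdx1* (0.15), *Gsta3* (0.14), *Gstm4* (0.27), *Gstm7* (0.078) and *Gsto1* (0.23), none of them called with TMM, turned positive. With upper-quartile factors the median of members was 0.33, and *Gsr* (0.037) and *Txnrd1* (0.015) turned positive. The cause was not tested. At an adjusted p under 0.01, by construction a stricter threshold, 3890 genes were called (1983 higher, 1907 lower), 5 members were higher, and 15 companion genes were lower. *Slc7a11* is among the 5. The members lower at this threshold were *Ephx1*, *Taldo1*, *Gpx1*, *Cat*, *Sod1*, *Sod2*, *Gstp1*, *Gstp2*, *Gstk1* and *Mgst1*. Companion genes higher at this threshold included *Hmox1*, *Cbr3* and *Dpep1*.

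Leaving out 1 mouse gave 6 to 13 members higher, the lowest without mutant mouse 3, 10 to 13 lower, and a median of members between 0.082 and 0.16. *Gstm4* ranged from -0.76 to 0.12, positive without control mouse 1 or mutant mouse 2 or 3. *Gsr* ranged from -0.28 to 0.056 and *Txnrd1* from -0.26 to 0.024, both positive without mutant mouse 2. The replicate numbers did not pair the mice (correlations of same-numbered mice 0.0371, 0.0331 and -0.0279), and a fit with the number as a block called 6100 genes, with 12 members higher and 12 lower. With 3 mice per group no exact permutation test of a single value can fall below 0.1, and counts at or under 3 per library set no upper fold for *Slc7a11*, *Mgst2* and *Ggt1*.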
